A study of Mus musculus with 9 samples.

Results

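Heat shock and DnaJ chaperone genes were described in nuclei of mouse cortical neurons. The set holds the genes whose symbols begin with Hsp90, Hspa, Hspb, Hspd, Hspe, Hsph, Dnaja, Dnajb or Dnajc, without pseudogenes, and whose counts summed to at least 50 over 9 libraries. These were 58 of 55401 annotated genes, and 16 further genes with such symbols lay under the sum. By family there were 3 Hsp90 genes, 11 Hspa and Hsph genes, 5 genes with Hspb symbols, the chaperonin pair Hspd1 and Hspe1, 4 Dnaja, 9 Dnajb and 24 Dnajc genes. Among the 5 Hspb symbols only Hspb3 and Hspb8 belong to small heat shock proteins: Hspbp1 encodes a nucleotide exchange factor of Hsp70, Hspbap1 a binding partner of a small heat shock protein, and Hspb11 a subunit of the intraflagellar transport machinery.

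The 9 libraries came from NeuN-positive nuclei, NeuN being the neuronal nuclear protein encoded by Rbfox3, sorted out of cortical tissue; the mice were 7 to 9 months old. There were 3 libraries from Tau P301S mice injected with a Cdk5i peptide, 3 from Tau P301S mice injected with a scrambled peptide, and 3 from WT mice that received no treatment. Both peptides were given into the abdomen every other day at 20 mg per kg body weight. The groups are called P301S Cdk5i, P301S scrambled and WT. P301S is a mutation of human tau that causes frontotemporal dementia, and Cdk5 is a neuronal kinase that phosphorylates tau. The labels do not name the transgene's promoter or the mouse line, and do not say whether each library stands for a separate mouse. The p-values then rest on the spread among libraries alone, which may be technical. Transgene and injection cannot be told apart in either comparison with WT, because the WT mice were not injected.

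Chaperones bind unfolded or partly folded proteins and let them fold, be refolded or be handed to degradation. Hsp70 proteins do this in cycles of ATP binding and hydrolysis. J proteins (the DnaJ families) deliver the client and start hydrolysis, and Hsp110 proteins and other exchange factors release the ADP so that the client can leave. Hsp90 acts later, on nearly folded clients such as kinases and steroid receptors. Tau is a known client of both Hsp70 and Hsp90. In cytosol and nucleus heat shock factor 1 switches on the inducible members under stress, while those of the endoplasmic reticulum (ER) are driven by the unfolded protein response.

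Libraries held 21584712 to 26715938 counts. Whole genes were counted, so introns and exons of nuclear RNA enter together, and levels are given as CPM (counts scaled to a common library size) or, between genes, as CPM per kb of gene. Rbfox3 measured 1106 to 1558 CPM in the 9 libraries. Markers of other cells were read too: oligodendrocyte markers (9 genes, 7 of them tested) summed to 77.7 to 123 CPM in P301S Cdk5i, 83.0 to 110.5 CPM in P301S scrambled and 73.1 to 82.8 CPM in WT libraries. Against WT, 7 of the 7 tested had positive log2 fold changes in P301S scrambled (median 0.47) and 6 in P301S Cdk5i (median 0.38). Of all genes tested 48.3% and 51.2% were negative there. Between the peptides 5 of the 7 were negative (52.8% of all genes), with a median of -0.29, and 0 passed the edgeR test in any comparison. Inhibitory neuron markers (8 genes) summed to 1069 to 1217 CPM in P301S Cdk5i, 904 to 998 CPM in P301S scrambled and 1028 to 1189 CPM in WT libraries, so that the scrambled sums lay below all others. The single inhibitory neuron markers went both ways. For P301S scrambled against WT 5 of the 8 had positive log2 fold changes and 3 negative, with a median of 0.02. The part of either marker list in the chaperone values was not tested. In sorted nuclei pooled as here, fewer cells of a type and less RNA per cell cannot be told apart.

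Per kb of gene, chaperones of the cytosol and the ER lumen were the most read members. Hsp90ab1, the constitutive cytosolic Hsp90, stood first with a mean of 16.0 CPM per kb over the 9 libraries (range 11.2 to 20.1). It was followed by Hspa5, the ER Hsp70 known as BiP, at 10.6 (7.31 to 15.1), by Hspa8, the constitutive cytosolic Hsp70, at 8.58 (5.54 to 11.2), and by Hsp90b1, the ER Hsp90 known as GRP94, at 7.30 CPM per kb (6.06 to 8.41). The ranges of these neighbours overlapped. Dnajb5 (3.94), the Hsp110 gene Hsph1 (3.36) and the inducible Hsp90aa1 (3.34 CPM per kb) came next. The median member stood at 0.941 CPM per kb, against 0.548 for all 16046 genes tested. The order depends on the division by gene length. In CPM Dnajc6, 146.2 kb long, led the members with a mean of 329.6 over the 9 libraries, against 88.0 for Hsp90ab1, 5.497 kb long.

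**Figure D1:**
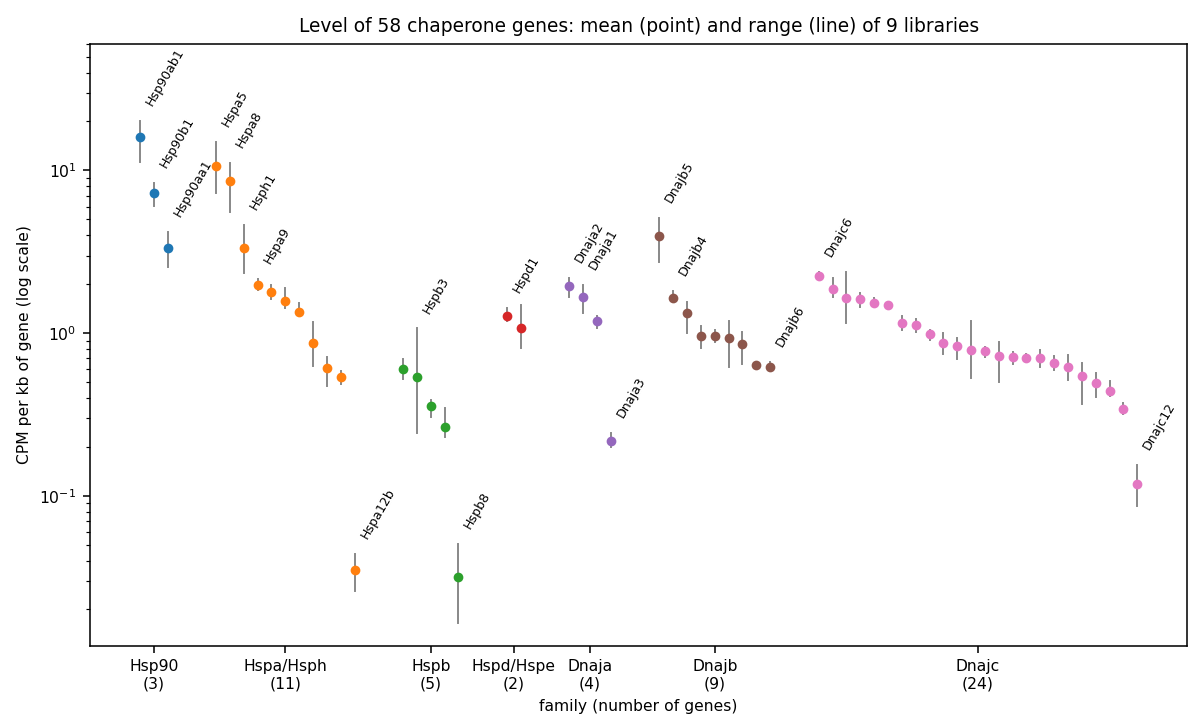
Level of each of the 58 genes in CPM per kb of gene on a log axis, by family, with the mean of 9 libraries as a point and their range as a line. Hsp90ab1 is highest at 16.0 and Hspb8 lowest at 0.0315 CPM per kb.

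Some J proteins of vesicles and protein quality control were among the steady members. Dnajc6, which encodes auxilin, the J protein that brings Hsp70 to clathrin coats, led the Dnajc family at 2.26 CPM per kb (2.16 to 2.38). Dnajc5, the cysteine string protein of synaptic vesicles, had 1.54 CPM per kb (1.46 to 1.63). Dnajb6, a J protein that suppresses aggregation of polyglutamine proteins, had 0.623 CPM per kb (0.597 to 0.662). Between the highest and the lowest library these genes differed by 1.10-fold (Dnajc6), 1.12-fold (Dnajc5) and 1.11-fold (Dnajb6). The least read members were Hspa12b (0.0348 CPM per kb) and Hspb8 (0.0315), a small heat shock protein that works with Bag3.

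The stress-inducible Hsp70 genes were almost unread. Hspa1a, under the sum with 33 counts over 9 libraries, had 2, 3 and 6 counts in P301S Cdk5i, 4, 5 and 9 in P301S scrambled and 1, 0 and 3 in WT libraries. Hspa1b, with 32 in all, had 0, 7 and 5 counts in P301S Cdk5i, 6, 3 and 3 in P301S scrambled and 4, 0 and 4 in WT libraries. These genes are near-identical copies, and reads that match both could be lost or split. Hspb1, the small heat shock protein Hsp27, had 2 counts in 1 scrambled library and 0 in the other 8, where 3 counts, the limit that a count of 0 allows, correspond to 0.114 to 0.142 CPM (counting error only). The genes just outside the sum were Dnajc5b with 38 counts and Hspb6 with 34, and those just inside it were Hspb3 with 90 and Hspb8 with 96. Dnajb3, at 0 in all libraries, is covered over 100% of its length by another gene on the same strand, where reads are left out of the counts. Among the members 5 had more than 5% of their length so covered, Hspa14 with 34.5% the most.

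Some of the chaperones most read per kb of gene also varied more between libraries than the trend for genes of equal abundance. The dispersion that edgeR fitted was more than 1.5 times the trend for genes of equal abundance in 6 members, or 10.3%, against 6.57% of all genes tested. They were Hspa8 (2.38 times the trend), Hsph1 (2.37), Dnajc21 (2.08), a J protein of ribosome assembly, Dnajb5 (1.98), Hsp90ab1 (1.78) and Hspa5 (1.62). By the ratio of the highest to the lowest library, the widest members were others: Hspb3 (4.40-fold), Hspb8 (3.05-fold) and Dnajc30 (2.25-fold), all read at low CPM. The narrowest was Dnajc13, an endosomal J protein also called RME-8, with 161 to 172 CPM in the 9 libraries, a 1.07-fold range. Dnajc6 and Hspa12a, the members with the highest mean CPM, lay under the trend, at 0.77 and 0.815 times.

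**Figure D2:**
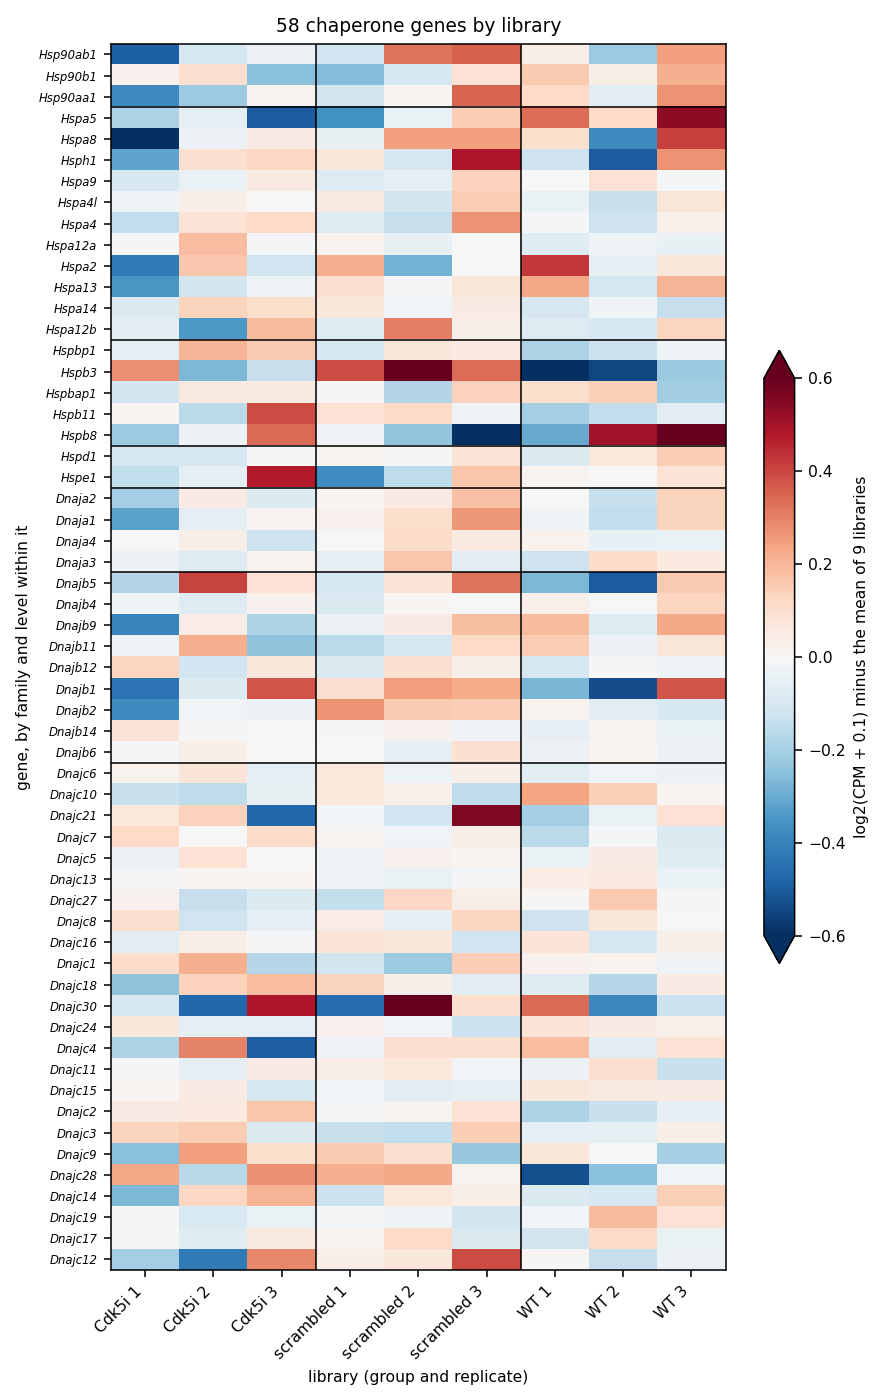
Each row is 1 of the 58 genes, ordered by family and level, and each column 1 library. Colours give log2(CPM + 0.1) minus the gene's mean over 9 libraries and are capped at 0.6, so P301S Cdk5i replicate 1 appears low and P301S scrambled replicate 3 and WT replicate 3 high in many Hsp90, Hspa and Dnaja rows.

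Several cytosolic chaperones had their extremes in the same libraries. A group of 10 cytosolic chaperones was assembled after the values were seen: Hsp90aa1, Hsp90ab1, Hspa8, Hspa4, Hspa4l, Hsph1, Dnaja1, Dnaja2, Dnaja4 and Dnajb1. It does not hold every cytosolic member. Of the 10, 6 had their lowest value in P301S Cdk5i replicate 1, against 14.1% of all genes tested. The highest value lay in P301S scrambled replicate 3 for 7 of the 10, against 9.05% of all genes tested. Over all 58 members these counts were 15 and 12. The summed level of the 10 was 421, 512 and 526 CPM in the P301S Cdk5i libraries, 507, 539 and 627 CPM in the P301S scrambled libraries and 516, 441 and 592 CPM in the WT libraries. The 3 ranges overlapped. Genes induced by neuronal activity or handling (10 genes, among them Fos, Arc and Npas4) varied over the same libraries: they summed to 40.0, 165 and 89.3 CPM in P301S Cdk5i, 76.7, 85.0 and 177 CPM in P301S scrambled and 78.9, 67.5 and 153 CPM in WT libraries. Low in both were P301S Cdk5i replicate 1 and WT replicate 2, and high in both P301S scrambled replicate 3 and WT replicate 3, whereas P301S Cdk5i replicate 2 was high in the activity genes alone. The part of activity or handling in the chaperone values was not tested.

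**Figure D3:**
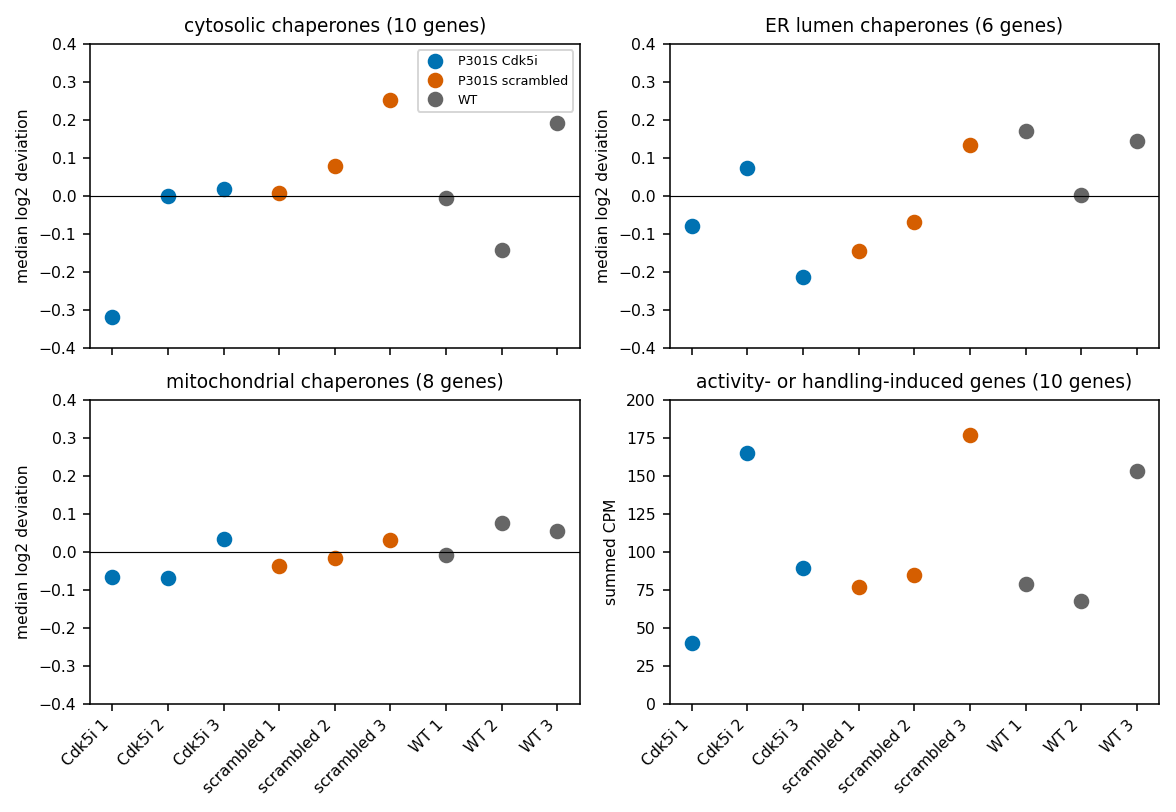
Median log2 deviation of 10 cytosolic, 6 ER lumen and 8 mitochondrial chaperones from their mean over 9 libraries, and summed CPM of 10 activity- or handling-induced genes, 1 point per library. The cytosolic median runs from -0.32 in P301S Cdk5i replicate 1 to 0.25 in P301S scrambled replicate 3, the mitochondrial one only from -0.07 to 0.08.

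The comparison of the peptides, P301S Cdk5i against P301S scrambled, asked what Cdk5i did in mice that carried the transgene and were injected alike. Of the 58 members 0 passed the edgeR quasi-likelihood test at an adjusted p of 0.05, where 0.0125% of all genes passed, and the lowest adjusted p of a member was 0.871. The median log2 fold change was -0.02, against -0.01 over all genes tested, with 33 of 58 members negative (52.8% of all genes). At an unadjusted p under 0.05 there were 0 members higher (2.87% of all genes) and 2 lower (2.46% of all genes). The groups did not overlap for 1 member that was higher in P301S Cdk5i (Dnajc13, 4.95% of all genes) and for 5 that were lower (Hspd1, Dnajb2, Dnaja1, Hspb3 and Hspa13, 5.38% of all genes). With 58 members, all of these counts are near their background. DESeq2 and limma-voom called 0 members as well, and 2 members each at an unadjusted p under 0.05.

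P301S Cdk5i against WT set the treated transgenic mice beside untreated mice. Again 0 of 58 members passed in edgeR, where 0.0748% of all genes did, and the lowest adjusted p was 0.277. The median log2 fold change was -0.01, that of all genes also -0.01, with 31 members negative (51.2% of all genes). At an unadjusted p under 0.05 there were 3 members higher (5.73% of all genes) and 3 lower (5.3% of all genes). The groups did not overlap for 3 members that were higher in P301S Cdk5i (Dnajc2, Dnajc7 and Hspa12a, 8.03% of all genes) and 3 that were lower (Hspa5, Dnajc10 and Dnajc15, 8.22% of all genes). DESeq2 called 1 member, Hspa5, and limma-voom 0, with 6 members at an unadjusted p under 0.05 by each.

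P301S scrambled against WT compared the injected transgenic mice that received the control peptide with untreated mice. Here too 0 of 58 members passed in edgeR, where 0.081% of all genes did, and the lowest adjusted p was 0.330. The median log2 fold change was 0.03, against 0.01 over all genes, with 35 members positive and 23 negative (48.3% of all genes negative). There was 1 member higher (4.86% of all genes) and 1 lower (5.2% of all genes) at an unadjusted p under 0.05. The groups did not overlap for 7 members that were higher in P301S scrambled (8.26% of all genes) and 2 that were lower (Dnajc24 and Dnajc15, 8.03% of all genes). DESeq2 and limma-voom called 0 members, with 3 and 2 at an unadjusted p under 0.05. The 3 comparisons share libraries in pairs, so their values are not independent of each other.

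**Figure D4:**
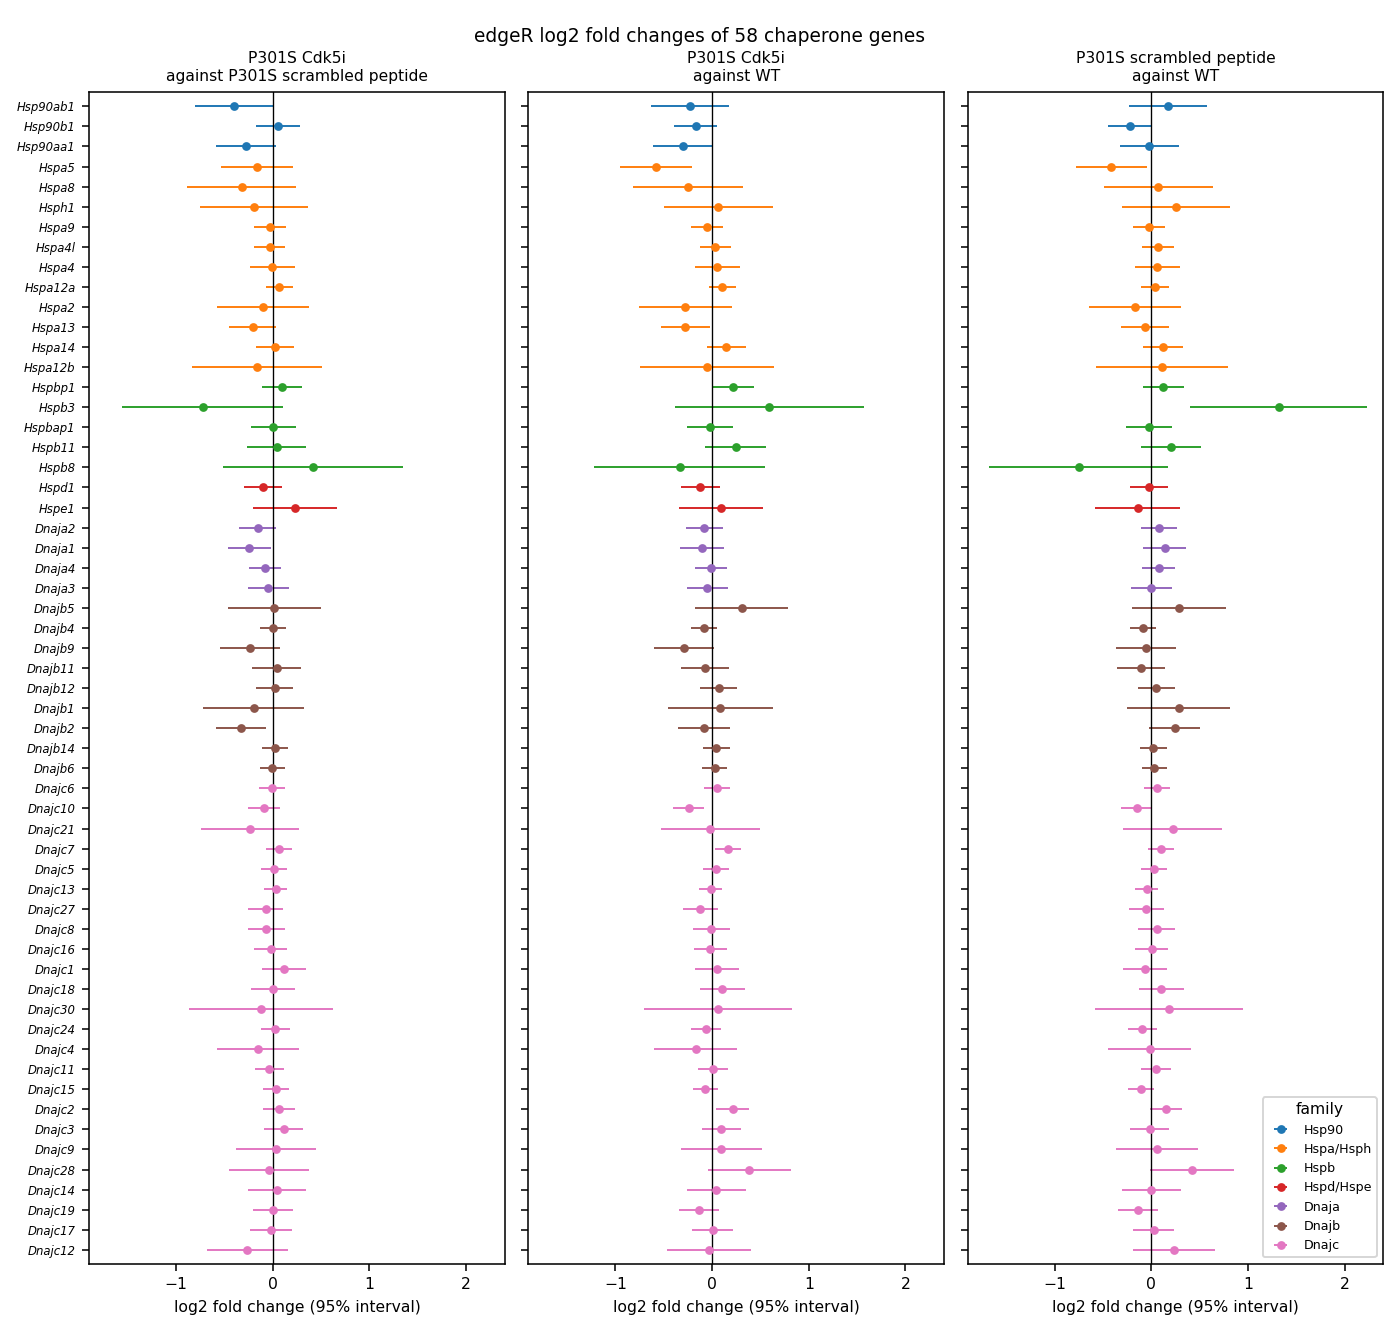
edgeR log2 fold changes with 95% intervals for the 58 genes in the 3 comparisons, coloured by family. Most intervals cross 0, and the widest belong to Hspb3 and Hspb8, the genes with the fewest counts.

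The cytosolic Hsp90 genes had lower values in P301S Cdk5i than in P301S scrambled, without passing the test. Hsp90ab1 had 61.6, 80.6 and 84.6 CPM in P301S Cdk5i, 80.0, 108.5 and 111 CPM in P301S scrambled and 88.6, 74.6 and 103 CPM in WT libraries. The Cdk5i and scrambled ranges met, since the lowest scrambled library lay below the highest Cdk5i libraries. Its log2 fold change was -0.40 between the peptides (95% interval -0.80 to 0.01, edgeR adjusted p = 0.922) and -0.23 against WT (-0.64 to 0.18). The value against WT was -0.10 without P301S Cdk5i replicate 1 and -0.11 without WT replicate 3. Hsp90aa1, the inducible form, had 30.7, 34.4 and 40.5 CPM in P301S Cdk5i, 37.1, 40.4 and 50.9 CPM in P301S scrambled and 43.5, 38.3 and 48.2 CPM in WT libraries. The groups overlapped in each pairing, and the log2 fold change was -0.28 between the peptides (edgeR adjusted p = 0.934) and -0.30 for P301S Cdk5i against WT (edgeR adjusted p = 0.478). Between the peptides it was -0.13 without P301S scrambled replicate 3.

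Hspa8, the constitutive Hsp70 that also strips clathrin from vesicles, had 50.4, 74.6 and 79.3 CPM in P301S Cdk5i, 74.2, 90.8 and 90.8 CPM in P301S scrambled and 82.4, 58.8 and 101.7 CPM in WT libraries. Libraries of 1 group differed by up to 1.73-fold (WT), and the groups overlapped. The log2 fold change between the peptides was -0.32, with an interval of -0.89 to 0.24, and -0.15 without P301S Cdk5i replicate 1. The Hsp110 gene Hsph1 had 58.3, 77.7 and 79.2 CPM in P301S Cdk5i, 76.3, 67.9 and 101.7 CPM in P301S scrambled and 66.6, 51.4 and 87.8 CPM in WT libraries, a log2 fold change of -0.19 between the peptides (interval -0.75 to 0.37). Without P301S scrambled replicate 3 that value was -0.0022, without P301S Cdk5i replicate 1 it was -0.06, and without P301S scrambled replicate 2 it was -0.30. The other Hsp110 genes were steadier: Hspa4 averaged 65.1 ± 6.39 CPM in P301S Cdk5i, 65.5 ± 10.4 in P301S scrambled and 62.7 ± 3.48 in WT, and Hspa4l 90.8 ± 1.97 CPM in P301S Cdk5i, 93.0 ± 8.46 in P301S scrambled and 88.6 ± 6.49 in WT (SD, n = 3 each). Hspa12a, a distant Hsp70 relative, averaged 208 ± 16.4 CPM in P301S Cdk5i, 199 ± 4.63 in P301S scrambled and 194 ± 3.15 in WT (SD, n = 3 each).

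**Figure D5:**
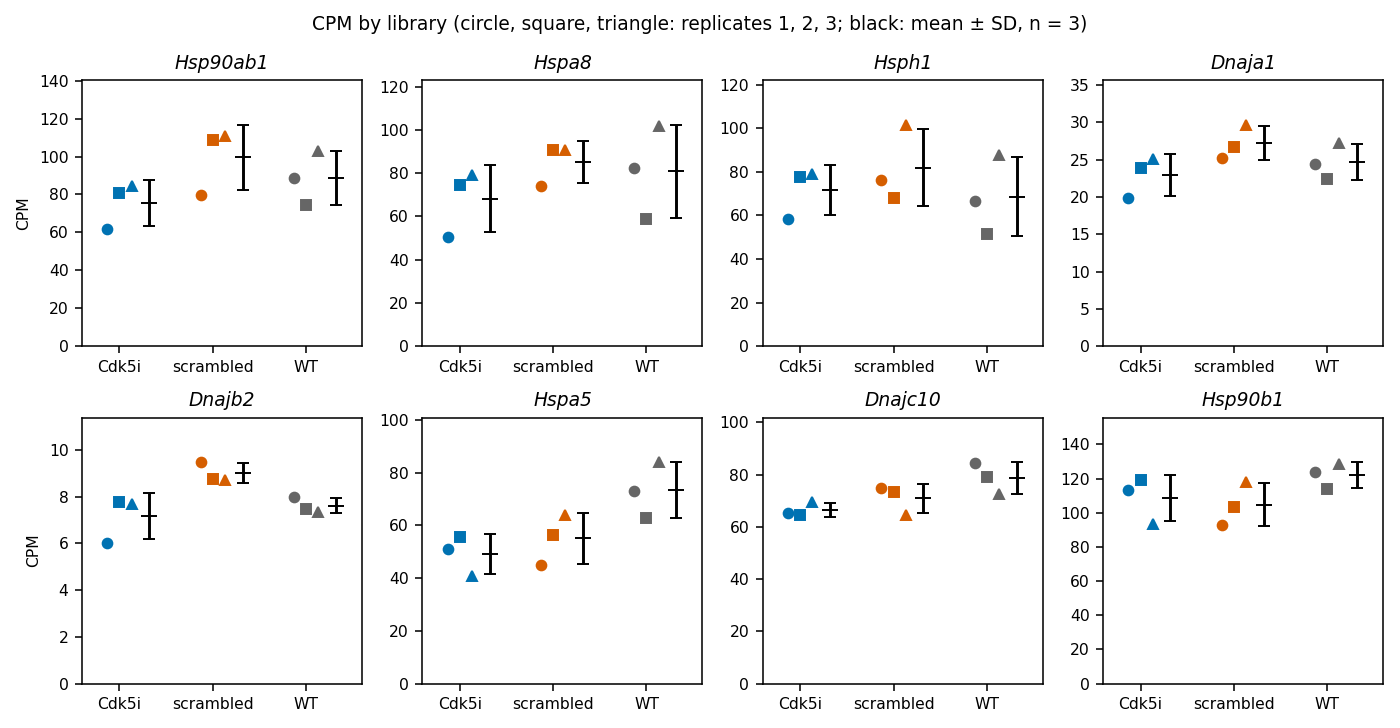
CPM of 8 chaperone genes in each library, with P301S Cdk5i left, P301S scrambled in the middle and WT right, and the mean ± SD of each group in black (n = 3). Hspa5 and Dnajc10 in P301S Cdk5i lie below every WT library, and Dnaja1 and Dnajb2 below every P301S scrambled library.

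Among the cytosolic J proteins, Dnaja1 and Dnajb2 had values in P301S Cdk5i below every scrambled library. Dnaja1, a partner of Hspa8, had 19.8, 23.9 and 25.1 CPM in P301S Cdk5i, 25.2, 26.7 and 29.7 CPM in P301S scrambled and 24.5, 22.4 and 27.2 CPM in WT libraries. The gap between the peptide groups was narrow, and both overlapped WT. Its log2 fold change between the peptides was -0.24 with a standard error of 0.10 (edgeR adjusted p = 0.922), and -0.15 without P301S Cdk5i replicate 1. Dnajb2, a J protein enriched in neurons that binds ubiquitin and sorts clients to the proteasome, had 6.03, 7.77 and 7.68 CPM in P301S Cdk5i, 9.49, 8.78 and 8.73 CPM in P301S scrambled and 7.97, 7.49 and 7.36 CPM in WT libraries. All 3 scrambled libraries lay above the other 6. The log2 fold change was -0.33 with a standard error of 0.12 between the peptides (edgeR adjusted p = 0.871), 0.24 for P301S scrambled against WT (edgeR adjusted p = 0.529) and -0.08 for P301S Cdk5i against WT.

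Dnaja2 averaged 32.5 ± 2.89 CPM in P301S Cdk5i, 36.3 ± 2.20 in P301S scrambled and 34.4 ± 3.23 in WT (SD, n = 3 each). Dnajb1, the main inducible J protein, had 2.95, 3.81 and 5.27 CPM in P301S Cdk5i, 4.32, 4.83 and 4.72 CPM in P301S scrambled and 3.32, 2.76 and 5.27 CPM in WT libraries. Its Cdk5i and WT libraries spread more widely than the scrambled ones, and the groups overlapped. Dnajb5, whose product binds class II histone deacetylases, averaged 40.6 ± 8.27 CPM in P301S Cdk5i, 40.2 ± 6.06 in P301S scrambled and 32.9 ± 7.79 in WT, and Dnajb4 51.6 ± 1.84 CPM in P301S Cdk5i, 51.5 ± 1.89 in P301S scrambled and 54.5 ± 2.65 in WT (SD, n = 3 each).

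As a group, the 10 cytosolic chaperones had 10 negative log2 fold changes between the peptides, with a median of -0.20, where 52.8% of all genes tested were negative. None passed the edgeR test, and their lowest adjusted p was 0.922. Without P301S Cdk5i replicate 1 the median was -0.10 with 9 negative, and without P301S scrambled replicate 3 it was -0.12 with 8 negative. With gene length taken into account it was -0.15. The activity or handling genes had 9 of 10 negative log2 fold changes in the same comparison, with a median of -0.18 and a lowest edgeR adjusted p of 0.966. Against WT, P301S scrambled had 9 of the 10 positive, with a median of 0.08, and P301S Cdk5i had 6 of 10 negative, with a median of -0.04. Of all genes tested 48.3% and 51.2% were negative in these comparisons. With each library left out the first median lay between 0.04 (without WT replicate 2) and 0.18 (without WT replicate 3), and the second between -0.12 (without WT replicate 2) and -0.01 (without WT replicate 3). Since the group was assembled with its values known, these counts are a description. Cytosolic members left out of the group went both ways between the peptides. Their log2 fold changes were, for example, -0.33 for Dnajb2 and -0.004 for Dnajb6. They were 0.06 for Dnajc7 and Dnajc2, 0.10 for Hspbp1, and 0.02 for Hspa14 and Dnajb5.

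Among the chaperones of the ER lumen, Hspa5 and Dnajc10 had lower values in every P301S Cdk5i library than in any WT library, and 0 of the 6 genes passed the edgeR test in any comparison. Hspa5 had 50.9, 55.5 and 40.8 CPM in P301S Cdk5i, 44.9, 56.3 and 63.9 CPM in P301S scrambled and 72.9, 62.8 and 84.0 CPM in WT libraries. All Cdk5i libraries lay below the WT libraries, and 1 scrambled library lay just above the lowest of WT. The log2 fold change was -0.58 for P301S Cdk5i against WT (95% interval -0.95 to -0.21, edgeR adjusted p = 0.281), -0.41 for P301S scrambled against WT (-0.78 to -0.04, edgeR adjusted p = 0.448) and -0.17 between the peptides (-0.54 to 0.21). The value between the peptides was -0.04 without P301S scrambled replicate 3 or P301S Cdk5i replicate 3, -0.27 without P301S Cdk5i replicate 2 and -0.29 without P301S scrambled replicate 1. DESeq2 gave an adjusted p of 0.0222 for P301S Cdk5i against WT, and edgeR without a low-count filter gave 2.48e-05. Over 19 alternatives this adjusted p ranged from 2.48e-05 to 0.682, and the fold change stayed between -0.68 and -0.46 with each library left out.

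Dnajc10, the ER J protein ERdj5 that reduces disulfide bonds, had 65.5, 64.7 and 69.6 CPM in P301S Cdk5i, 74.9, 73.3 and 64.6 CPM in P301S scrambled and 84.6, 79.2 and 72.5 CPM in WT libraries. The Cdk5i libraries lay below WT, with scrambled between and overlapping both. Its log2 fold change was -0.24 for P301S Cdk5i against WT (standard error 0.07, edgeR adjusted p = 0.277) and -0.15 for P301S scrambled against WT, which was -0.09 without P301S scrambled replicate 3 and -0.10 without WT replicate 1. Hsp90b1 had 113, 119 and 93.2 CPM in P301S Cdk5i, 92.7, 104 and 118 CPM in P301S scrambled and 124, 114 and 129 CPM in WT libraries, a log2 fold change of -0.17 for P301S Cdk5i against WT (edgeR adjusted p = 0.585) and -0.22 for P301S scrambled against WT (edgeR adjusted p = 0.505). These were -0.06 without P301S Cdk5i replicate 3 and -0.14 without P301S scrambled replicate 1. Dnajb9 (ERdj4), Dnajb11 (ERdj3) and Dnajc3 (p58IPK), which work with Hspa5 or regulate the stress sensors, had log2 fold changes of -0.29, -0.07 and 0.10 for P301S Cdk5i against WT. That of Dnajb9 was -0.19 without P301S Cdk5i replicate 1.

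The group of 6 ER genes was likewise assembled after the values were seen and may not hold every ER member. Of these, 6 had negative log2 fold changes for P301S scrambled against WT and 5 for P301S Cdk5i against WT, with medians of -0.13 and -0.21. The share of all genes that was negative was 48.3% and 51.2% in these comparisons. Between the peptides 3 were negative, with a median of -0.03 whose sign turned without P301S scrambled replicate 3 or P301S Cdk5i replicate 3. Hspa13, an Hspa gene left out of the group, had -0.21 between the peptides, and -0.12 without P301S Cdk5i replicate 1. The comparisons with WT share the WT libraries, and WT replicates 1 and 3 held the highest values: summed, the 6 genes reached 286, 302 and 254 CPM in P301S Cdk5i, 263, 285 and 308 CPM in P301S scrambled and 339, 310 and 344 CPM in WT libraries. The WT sums lay above the other 6. Astrocyte markers (6 genes, all tested and none at 0 in a library) moved over the same libraries: they summed to 476.5, 518.5 and 351 CPM in P301S Cdk5i, 399, 415 and 516 CPM in P301S scrambled and 550.3, 468 and 521 CPM in WT libraries. Both sums were lowest in P301S Cdk5i replicate 3 and P301S scrambled replicate 1 and highest in WT replicates 1 and 3. Of the astrocyte markers 4 of 6 had negative log2 fold changes in each comparison with WT, and their part in the ER values was not tested. Without WT replicate 1 the median for P301S scrambled against WT was -0.08.

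The promoters of 3 of these genes hold the ER stress element, the letters CCAAT and CCACG with 9 bases between them, on either strand within 250 bases before the RefSeq start. It is the site through which the factors of the unfolded protein response are known to act, and it was found in 37 of 32851 promoters (0.113%) and in 3 of the 63 promoters that matched 47 of the members (4.76%). The search for it was added after the values were seen, and ER chaperone genes are known to be driven by this response, so the 2 shares are a description. The stretches below are from RefSeq (GRCm38.p6), written 5′ to 3′ on the gene's strand, with the element in capitals, and are shown because Hspa5 and 2 more of the 6 ER genes carry it: Hspa5 at chr2:34772020-34772048 (plus strand), Hsp90b1 at chr10:86705510-86705694 (minus strand, with 2 elements, the second on the opposite strand) and Dnajc3 at chr14:118937682-118937931 (plus strand).
Hspa5: cttcaCCAATCGGAGGCCTCCACGacggg
Hsp90b1: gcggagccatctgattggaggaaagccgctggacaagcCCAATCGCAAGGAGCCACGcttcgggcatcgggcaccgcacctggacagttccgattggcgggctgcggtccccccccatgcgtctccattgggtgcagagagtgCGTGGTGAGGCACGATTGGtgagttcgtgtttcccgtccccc
Dnajc3: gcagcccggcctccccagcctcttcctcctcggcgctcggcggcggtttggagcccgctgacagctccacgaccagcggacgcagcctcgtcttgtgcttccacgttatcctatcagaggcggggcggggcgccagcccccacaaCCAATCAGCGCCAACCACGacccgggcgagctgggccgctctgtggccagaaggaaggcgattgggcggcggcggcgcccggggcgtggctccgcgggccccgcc

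These 3 genes did not share 1 pattern: for P301S Cdk5i against WT their log2 fold changes were -0.58 (Hspa5), -0.17 (Hsp90b1) and 0.10 (Dnajc3). A match of letters is a description of the window, and a missing match says nothing of the factor.

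The chaperones of the mitochondrial matrix and import went both ways, and 0 of 8 passed the edgeR test in any comparison. Hspd1 (Hsp60) had 12.4, 12.4 and 13.3 CPM in P301S Cdk5i, 13.5, 13.3 and 14.1 CPM in P301S scrambled and 12.6, 14.0 and 14.8 CPM in WT libraries. The Cdk5i values lay just below the scrambled ones, a log2 fold change of -0.10 (interval -0.30 to 0.10). Hspe1 (Hsp10), its lid, had 3.04, 3.24 and 4.74 CPM in P301S Cdk5i, 2.58, 3.03 and 3.81 CPM in P301S scrambled and 3.42, 3.37 and 3.59 CPM in WT libraries, with all groups overlapping. Its log2 fold change of 0.23 between the peptides (interval -0.20 to 0.66) was 0.01 without P301S Cdk5i replicate 3, 0.11 without P301S scrambled replicate 1 and 0.40 without P301S scrambled replicate 3. Dnajc15, an inner-membrane J protein, had 38.8, 39.7 and 36.0 CPM in P301S Cdk5i, 38.0, 36.7 and 37.1 CPM in P301S scrambled and 40.3, 39.9 and 39.8 CPM in WT libraries. Every WT library lay above the other 6, by small steps, with a log2 fold change of -0.07 for P301S Cdk5i against WT (edgeR adjusted p = 0.733) and -0.10 for P301S scrambled against WT (edgeR adjusted p = 0.610). Dnajc30 ranged 2.25-fold over the 9 libraries. Hspa9 (mortalin), the matrix Hsp70, averaged 32.6 ± 1.75 CPM in P301S Cdk5i, 33.3 ± 2.77 in P301S scrambled and 33.8 ± 1.24 in WT (SD, n = 3 each). The mitochondrial group holds 8 genes: Hspd1, Hspe1, Hspa9, Dnaja3, Dnajc11, Dnajc15, Dnajc19 and Dnajc30. It too was assembled after the values were seen and may not hold every mitochondrial member. Its median log2 fold changes were -0.03 between the peptides, -0.05 for P301S Cdk5i against WT and -0.02 for P301S scrambled against WT. The sign of the first turned without P301S scrambled replicate 2 and that of the last without P301S scrambled replicate 1.

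Hspd1 and Hspe1 lie head to head and share 1 promoter, in which the heat shock element, GAA, TTC and GAA (or TTC, GAA and TTC) with 2 bases between the units, was found in 2 overlapping copies. This 3-unit element, the site of heat shock factor 1, occurred in 153 of 32851 promoters (0.466%) and in 4 of the 63 member promoters (6.35%), those of Hspd1, Hspe1 and, with 2 starts, Dnajb6. The 2-unit form was in 12.8% of all and 19% of member promoters, and the CCAAT box alone in 33.8% and 33.3%. The RefSeq sites (GRCm38.p6) are given 5′ to 3′ on each gene's strand with the element in capitals, at chr1:55088053-55088082 (minus strand for Hspd1, plus strand for Hspe1, so that the first line is the complement of the second) and at chr5:29735844-29735872 (plus strand) for Dnajb6.
Hspd1: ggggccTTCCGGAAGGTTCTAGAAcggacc
Hspe1: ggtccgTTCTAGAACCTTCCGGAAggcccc
Dnajb6: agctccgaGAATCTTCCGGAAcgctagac

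Of the carriers of this element, Dnajb6 varied little and averaged 51.6 ± 0.863 CPM in P301S Cdk5i, 51.7 ± 2.71 in P301S scrambled and 50.7 ± 0.938 in WT (SD, n = 3 each). The log2 fold changes of the 3 genes lay between -0.10 and 0.23 between the peptides, and 0 of them passed in any comparison.

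Of the small heat shock proteins, Hspb3, best known from muscle, gave the largest log2 fold change of all members. It had 0.491, 0.305 and 0.344 CPM in P301S Cdk5i, 0.540, 0.834 and 0.516 CPM in P301S scrambled and 0.190, 0.234 and 0.318 CPM in WT libraries. Every scrambled library lay above the other 6. Its counts were 11, 8 and 9 in P301S Cdk5i, 14, 19 and 13 in P301S scrambled and 4, 5 and 7 in WT libraries. Only in P301S scrambled did every library reach the minimum count of 10 of the low-count filter. Hspb3 was thus tested through the group where it was high, and its separation is a description. The log2 fold change was 1.32 for P301S scrambled against WT (interval 0.41 to 2.23, edgeR adjusted p = 0.330) and -0.73 between the peptides (edgeR adjusted p = 0.942), on 90 counts over the 9 libraries. Between the peptides it was -0.48 without P301S scrambled replicate 2. Hspb8 had 0.357, 0.419 and 0.573 CPM in P301S Cdk5i, 0.424, 0.351 and 0.238 CPM in P301S scrambled and 0.332, 0.655 and 0.727 CPM in WT libraries, with all groups overlapping. Hspbp1, the exchange factor, averaged 15.9 ± 1.47 CPM in P301S Cdk5i, 14.9 ± 0.923 in P301S scrambled and 13.6 ± 0.801 in WT (SD, n = 3 each), a log2 fold change of 0.22 for P301S Cdk5i against WT with overlapping groups (edgeR adjusted p = 0.430).

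In the large Dnajc family 2 of 24 genes were higher and 1, Dnajc10, was lower in P301S Cdk5i than in every WT library at an unadjusted p under 0.05, beside 5.73% of all genes higher and 5.3% lower at that p. Dnajc2, a J protein of the ribosome that acts with Hspa14 on nascent chains, had 20.4, 20.5 and 22.1 CPM in P301S Cdk5i, 19.6, 19.9 and 20.9 CPM in P301S scrambled and 17.3, 17.9 and 19.0 CPM in WT libraries. Both transgenic groups lay above WT. The log2 fold change was 0.21 for P301S Cdk5i against WT (edgeR adjusted p = 0.352) and 0.15 for P301S scrambled against WT (edgeR adjusted p = 0.538). Its partner Hspa14 had 12.1, 14.1 and 13.8 CPM in P301S Cdk5i, 13.5, 12.7 and 13.3 CPM in P301S scrambled and 11.95, 12.6 and 11.7 CPM in WT libraries, a log2 fold change of 0.15 for P301S Cdk5i (edgeR adjusted p = 0.601) and 0.12 for P301S scrambled (edgeR adjusted p = 0.706) against WT.

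Dnajc7, which binds both Hsp70 and Hsp90, averaged 64.0 ± 2.92 CPM in P301S Cdk5i, 61.2 ± 1.13 in P301S scrambled and 57.2 ± 3.02 in WT (SD, n = 3 each). The Cdk5i libraries lay above WT, by a log2 fold change of 0.16 (standard error 0.06, edgeR adjusted p = 0.379). The synaptic and clathrin J proteins overlapped between all groups. Dnajc6 averaged 333 ± 15.6 CPM in P301S Cdk5i, 335 ± 11.3 in P301S scrambled and 321 ± 4.87 in WT, and Dnajc5 54.0 ± 2.36 CPM in P301S Cdk5i, 53.6 ± 1.06 in P301S scrambled and 52.6 ± 2.34 in WT (SD, n = 3 each). Their intervals between the peptides were -0.14 to 0.12 and -0.12 to 0.14 on the log2 scale. Over the 24 Dnajc genes the log2 fold changes ran from -0.26 to 0.11 between the peptides, from -0.24 to 0.39 for P301S Cdk5i against WT and from -0.15 to 0.42 for P301S scrambled against WT, and 12, 11 and 9 of them were negative. Of all genes tested 52.8%, 51.2% and 48.3% were negative in the same order. The value of 0.42 was that of Dnajc28 (edgeR adjusted p = 0.511), whose scrambled libraries all lay above WT.

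The partners of these chaperones that carry other symbols were taken from a list of 71, of which 68 genes outside the families were tested. They were 5 genes of the heat shock factors and their regulator Hsbp1, 32 genes listed as co-chaperones and 14 chaperonin and prefoldin subunits. With them were 3 crystallin and disaggregase genes and 15 genes of ER folding and the unfolded protein response. The 32 hold Hspbp1, which is not counted in the 68, and Trap1 and Hyou1, which are chaperones themselves. In edgeR 0 of the 68 passed in any comparison, with lowest adjusted p values of 0.842 between the peptides, 0.346 for P301S Cdk5i against WT and 0.330 for P301S scrambled against WT. Between the peptides 52 of 68 (76.5%) were negative with a median log2 fold change of -0.07, against 52.8% of all genes tested. In P301S scrambled against WT 41 were positive, with a median of 0.04. There 39.7% of the 68 were negative, against 48.3% of all genes tested. In P301S Cdk5i against WT 37 (54.4%) were negative, with a median of -0.02, against 51.2% of all genes tested.

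Between the peptides 52.8% of all genes tested were negative. Of the 5 heat shock factor and Hsbp1 genes 4 were negative, with a median log2 fold change of -0.12. So were 10 of 14 chaperonin and prefoldin subunits, with a median of -0.08. Of the genes listed as co-chaperones 27 of 32 were negative, with a median of -0.08. That median was -0.02 without P301S Cdk5i replicate 1, -0.04 without P301S scrambled replicate 2 and -0.05 with gene length taken into account. In P301S scrambled against WT 25 of 32 were positive, with a median of 0.12 that was 0.06 without WT replicate 2. There 21.9% of the 32 were negative, against 48.3% of all genes tested. Fkbp4, an immunophilin of Hsp90 that binds tau, averaged 10.13 ± 1.084 CPM in P301S Cdk5i, 12.75 ± 1.158 in P301S scrambled and 10.28 ± 1.144 in WT (SD, n = 3 each). All scrambled libraries lay above the other 6, with log2 fold changes of -0.33 between the peptides (edgeR adjusted p = 0.842) and 0.31 for P301S scrambled against WT (edgeR adjusted p = 0.416).

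Partner genes are named where the groups did not overlap and the unadjusted p was under 0.05. For P301S scrambled against WT the groups did not overlap for 10 of the 68 genes that were higher and 5 that were lower, against 8.26% and 8.03% of all genes. Besides Fkbp4, those named are Stip1 (0.32), the adaptor between Hsp70 and Hsp90, Ahsa1 (0.28), which speeds the Hsp90 ATPase, Ttc1 (0.21), which binds Hsp70, Hsbp1 (0.42), a negative regulator of heat shock factor 1, and Calr. The adjusted p of the first 4 in edgeR lay between 0.432 and 0.464.

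Between the peptides the groups did not overlap for 1 of the 68 genes that was higher and 12 that were lower in P301S Cdk5i, against 4.95% and 5.38% of all genes. Named by the same rule, besides Fkbp4, are Hsbp1 (-0.44), Hsf4 (-0.39), Ahsa2 (-0.23) and the chaperonin subunits Tcp1 (-0.21) and Cct6a (-0.19). Their adjusted p in edgeR lay between 0.888 and 0.922. For P301S Cdk5i against WT there were 4 higher and 6 lower without overlap, against 8.03% and 8.22% of all genes, and those named are Sdf2l1 (-0.70), Bag5 (-0.30) and Tcp1 (-0.19). Here the adjusted p in edgeR lay between 0.426 and 0.449.

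Among ER genes outside the families Calr, the calcium-binding lectin chaperone calreticulin, had 58.8, 68.8 and 52.9 CPM in P301S Cdk5i, 50.9, 60.1 and 64.6 CPM in P301S scrambled and 75.0, 68.6 and 80.5 CPM in WT libraries. Scrambled lay below WT without overlap, by a log2 fold change of -0.35 (standard error 0.11, edgeR adjusted p = 0.330), and 1 Cdk5i library lay just above the lowest WT value. The whole ER list did not follow it, since 9 of its 15 genes were negative in each of the 3 comparisons and their medians were -0.04 between the peptides, -0.02 for P301S Cdk5i against WT and -0.04 for P301S scrambled against WT. Of all genes tested 52.8%, 51.2% and 48.3% were negative in the same order.

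The median standard error of a member's log2 fold change was 0.10, against 0.14 for all genes, although it was 0.24 to 0.25 for Hspa8, Hsph1 and Dnajb1 and 0.31 to 0.45 for Hspa12b, Dnajc30, Hspb3 and Hspb8. A missed threshold at these errors does not show equal levels.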

How the data were processed

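The authors deposited 1 table per library that holds raw counts (read pairs, whole numbers, unscaled) and a Length column (another unit, the length of each gene in bases). Per the file headers the counts come from featureCounts 2.0.0 with whole genes as features, read pairs and reversed strand, on Ensembl release 102. Pairs that overlap several genes on 1 strand are left out by default. The submitters' processing notes name STAR 2.7.9a for GRCm38, and further Subread 2.0.0 as well as DESeq2 1.36.0. Per the labels' protocols RNA was taken with a kit for fixed tissue and made into stranded total RNA libraries, sequenced with 40 bases per end. Of 55401 gene IDs 55141 matched a symbol. Chi-square per gene between libraries of 1 group was 8.84 to 26.1, far from the value near 1 of copied libraries.

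Counts were analysed in R 4.3.3 with edgeR 4.0.16: filterByExpr (minimum count 10) kept 16046 genes, all 58 members among them. TMM factors, a robust quasi-likelihood fit of 3 group means to 9 libraries (6 residual degrees of freedom, median prior 7.15) and Benjamini-Hochberg adjustment over all genes at 0.05 followed. CPM use TMM-scaled library sizes. DESeq2 1.42.0 and limma 3.58.1 were among 19 alternatives, 9 of which leave out 1 library. The fit was tested on simulated data. Members, gene lists and the rule for named genes (members at an unadjusted p under 0.05 with groups that do not overlap, the top 2 of each family per kb, a list of core chaperones and the genes at the sum of 50) were chosen with earlier results of these data known. Compartment groups and other members named were chosen after values were seen. Deviations of same-numbered replicates from their group means had correlations of -0.308 to 0.171 (0.0651 to 0.171 between WT and P301S scrambled). Differently numbered libraries were not compared, so these values cannot decide whether numbers pair libraries. The main fit did not pair them. Promoters are the 250 bases before RefSeq starts. Stretches inside annotated exons (GENCODE) are shown only as a site. Protein sequences were not used here.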

Additional observations from a re-analysis of the deposited data

How the results depend on the processing

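The number of members called stayed at 0 in 18 of 19 alternatives for P301S scrambled against WT, in 19 for the peptides and in 17 for P301S Cdk5i against WT. Without a low-count filter it was 1 for P301S scrambled against WT (Hspa5, log2 fold change -0.41) and 2 for P301S Cdk5i against WT (Hspa5, -0.57, adjusted p = 2.48e-05, and Hsp90aa1, adjusted p = 0.0499), and DESeq2 called 1 there (Hspa5, -0.57, adjusted p = 0.0222); the cause was not tested. With each library left out the counts stayed at 0. The median log2 fold change of the members ranged with each library left out from 0.018 to 0.0425 for P301S scrambled against WT, from -0.043 to 0.000191 for the peptides and from -0.0174 to 0.0133 for P301S Cdk5i against WT, so the signs of the last 2 are not settled. The other 10 alternatives gave 0.0237 to 0.0387 for P301S scrambled against WT, -0.0215 to -0.00774 for the peptides and -0.0182 to 0.000203 for P301S Cdk5i against WT. The 7 named comparisons kept their direction throughout. With the replicate block 0 members passed in each comparison, the medians were 0.0345 for P301S scrambled against WT, -0.0194 for the peptides and -0.0098 for P301S Cdk5i against WT, and no member's call changed. Over all genes the block gave 2 calls in each, against 13, 2 and 12 in the same order without it; DESeq2 gave 75, 27 and 111, and no low-count filter 318, 159 and 408. Longer genes had higher fold changes between the peptides (Pearson's r across 16046 genes 0.217, genes not being independent replicates). With 3 libraries per group, depth limits Hspb3 and Hspb8, on 90 and 96 counts.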
